A study of Mus musculus with 11 samples.

Results

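The genes described here are 10 immune checkpoint ligands and receptors, taken as every row of the deposited transcript table that carries one of their symbols, summed by symbol. They are 10 of 24515 genes in the table, and all 10 passed the filter on low counts that left 15175 genes for testing. They were measured by poly-A RNA sequencing in 11 mouse lung libraries, from 6 tumors and the 5 adjacent normal lungs of 5 mice. Every mouse, and so every normal lung, lacked Gprc5a and had received intraperitoneal NNK, a tobacco nitrosamine (50 mg per kg, 3 doses weekly over 8 weeks). There is therefore no untreated and no Gprc5a-carrying lung among the controls. Titles tag 3 tumors as ADN (mice m335, m368 and m350) and 3 as ADC (mice m335, m372 and m378). The labels do not spell these tags out. Tissue was taken 4 months after NNK from mouse m335, 6 months after it from mouse m368 and 7 months after it from the other mice. Mouse m335 gave both an ADN and an ADC tumor, and they share 1 normal lung. The comparisons ask how each tumor differs from the normal lung of its own mouse and how the tagged kinds differ.

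Immune checkpoints are ligand and receptor pairs that raise or restrain the response of a T cell once its antigen receptor is engaged. PD-L1 (Cd274) and PD-L2 (Pdcd1lg2) on tumor or myeloid cells engage PD-1 (Pdcd1) on T cells, and CTLA-4 competes with CD28 for CD80 and CD86. LAG-3, TIM-3 (Havcr2) and TIGIT are further inhibitory receptors, ICOS is a costimulatory one, and B7-H3 (Cd276) and B7-H4 (Vtcn1) are B7 family proteins found on epithelial tumors, among other cells. Interferon gamma made by T and natural killer cells is a well known inducer of Cd274.

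Levels are CPM, counts scaled to a common library size, with library sizes corrected by the trimmed mean of M values. Total counts ran from 19938822 to 46987587. Gprc5a had 0 to 19 counts in every library, at most 0.642 CPM. The ADC tumor of mouse m335 stood apart from the other tumors. Its summed interferon gamma response list (20 genes, all in the table) was 13988 CPM, against 1157 to 2856 CPM in the other 10 libraries. Its T cell list (16 of 19 genes in the table, summed) was 1144 CPM, against 81.4 to 181 CPM in the other tumors and 260 to 1299 CPM in normal lungs. Its epithelial list (8 of 8 genes) was 15168 CPM, against 38624 to 60781 CPM in the other tumors and 20515 to 33530 CPM in normal lungs. The epithelial sum mostly follows Sftpc (mean 35162 CPM over all libraries). The highest T cell sum came from the m372 normal lung, where the thymocyte list was also high (594 CPM, against 8.46 to 98.2 CPM in the other libraries) and Rag1, a gene of developing lymphocytes, stood at 212 CPM. Rag1 had 0 counts in the m335 ADC tumor. All 3 libraries of mouse m335 expressed the Y-linked Ddx3y (17.7 to 43.3 CPM), and Xist was detected in all of them (normal 1.21, ADN 16.7 and ADC 8.89 CPM). Whether reads of another library are mixed into them was not tested. Xist was 153 to 258 CPM in mice m368, m350 and m378 and did not exceed 0.437 CPM in either library of mouse m372. In these bulk samples fewer cells of a type and less RNA per cell cannot be told apart.

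In the GRCm38 build Cd274 (chromosome 19, 29367438 to 29388094, plus strand) lies next to Pdcd1lg2 (chromosome 19, 29410919 to 29472927, plus strand), with 22824 bases between them. Ctla4 (chromosome 1, 60909025 to 60915832, plus strand) and Icos (chromosome 1, 60977914 to 61000321, plus strand) are likewise neighbors, 62081 bases apart. Pdcd1 (94038305 to 94052553, minus strand) is farther along chromosome 1. Cd276 is on chromosome 9 (58524300 to 58540940, minus strand), Vtcn1 on chromosome 3 (100825459 to 100896922, plus strand), Lag3 on chromosome 6 (124904359 to 124911705, minus strand), Havcr2 on chromosome 11 (46454931 to 46481254, plus strand) and Tigit on chromosome 16 (43648861 to 43664184, minus strand). These are the spans of the transcripts in the deposited table, exons and introns included. For Cd276 the RefSeq start lies 14093 bases beyond the start of the deposited transcript, and the promoter searched below is the one at the RefSeq start. GENCODE M21 places an antisense gene over Cd274 (AC119228.1) and over Pdcd1lg2 (A930007I19Rik), and whether counting used strand is not given in the sources used here. Reads of these pairs therefore cannot be told apart.

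The 250 bases before the RefSeq start (GRCm38.p6) are shown for PD-1 and its 2 ligands. They are among the 8 of the 10 genes that were highest in the ADC tumor of mouse m335. In the ADN tumor of that mouse Cd274 was below and Pdcd1 above the own normal lung. RefSeq promoter sequences were matched for 8 of the 10 genes. Each is 5′ to 3′ on the gene's own strand, with the 4-letter core GAAA of interferon regulatory factor elements, or TTTC on the other strand, in capitals. The windows are chr19:29367188-29367437 (plus) for Cd274, chr19:29410669-29410918 (plus) for Pdcd1lg2 and chr1:94052554-94052803 (minus) for Pdcd1.
Cd274: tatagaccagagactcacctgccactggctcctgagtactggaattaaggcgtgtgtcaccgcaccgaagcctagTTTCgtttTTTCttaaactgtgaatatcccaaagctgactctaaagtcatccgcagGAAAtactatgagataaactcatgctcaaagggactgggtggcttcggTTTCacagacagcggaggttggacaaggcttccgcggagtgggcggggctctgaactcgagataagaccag
Pdcd1lg2: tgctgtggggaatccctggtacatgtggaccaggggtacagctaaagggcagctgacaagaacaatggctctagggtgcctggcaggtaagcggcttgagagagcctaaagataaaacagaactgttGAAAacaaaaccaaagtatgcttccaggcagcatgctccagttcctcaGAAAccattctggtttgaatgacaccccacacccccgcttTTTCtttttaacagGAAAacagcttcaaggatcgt
Pdcd1: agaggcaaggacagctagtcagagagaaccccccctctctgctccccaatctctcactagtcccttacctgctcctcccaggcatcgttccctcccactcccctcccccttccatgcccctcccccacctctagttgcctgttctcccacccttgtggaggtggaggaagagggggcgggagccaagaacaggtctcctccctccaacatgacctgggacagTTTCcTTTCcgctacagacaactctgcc
The core, chosen after the data were seen, occurred 4 times before Cd274 and 4 times before Pdcd1lg2, a number reached by 28.9% of 32851 promoters. It occurred 2 times before Pdcd1, a number reached by 66.4% of them. Longer motifs were searched on both strands from 250 bases before to 50 after the start, and 2 of them are given here. They are GAAA, any 2 bases, GAAA (an interferon regulatory factor element, in 3.44% of all promoters) and GGGA, any 2 bases, TTCC (an NF-kB site, in 1.47%), and neither was found in the 8 promoters.

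Cd276 was the checkpoint gene that rose in the tumors, and it did so in all 6. The other 9 genes did not pass the test over all tumors, and for 8 of them the highest tumor was the ADC tumor of mouse m335. In tumors against normal lungs 1 of the 10 genes passed an adjusted p of 0.05 (edgeR quasi-likelihood test, mouse as a block), beside 11.6% of all genes tested, 3.68% higher and 7.91% lower. The median log2 fold change of the 10 genes was 0.12, beside -0.03 for all genes. Without the ADC tumor of mouse m335 that median was -0.23, and Cd276 again was the 1 gene that passed, beside 22.4% of 15106 genes. By tag, 1 of 10 passed in ADN tumors against normal lungs (7.53% of all genes, 2.68% higher and 4.84% lower) and 1 of 10 in ADC tumors against normal lungs (4.99%, 1.01% higher and 3.98% lower), both Cd276. These comparisons share the normal lungs. Between ADC and ADN tumors 0 of 10 passed, and so did 0 of 15175 genes (0% called). At an unadjusted p under 0.05 there were 4 of the 10 (Cd274, Cd276, Ctla4 and Havcr2) beside 992 genes, or 6.54%. The same count was 1 of 10 beside 26.4% in tumors, 2 of 10 beside 24% in ADN tumors and 2 of 10 beside 18.6% in ADC tumors, each against normal lungs. Between ADC and ADN tumors DESeq2 called 129 genes, Cd274 among them. By the labels, libraries of a group differ in time after NNK as well as in mouse. Whether they differ in more is not given. The p-values rest on the spread between these libraries that is left after the mouse and the group are fitted.

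**Figure D1:**
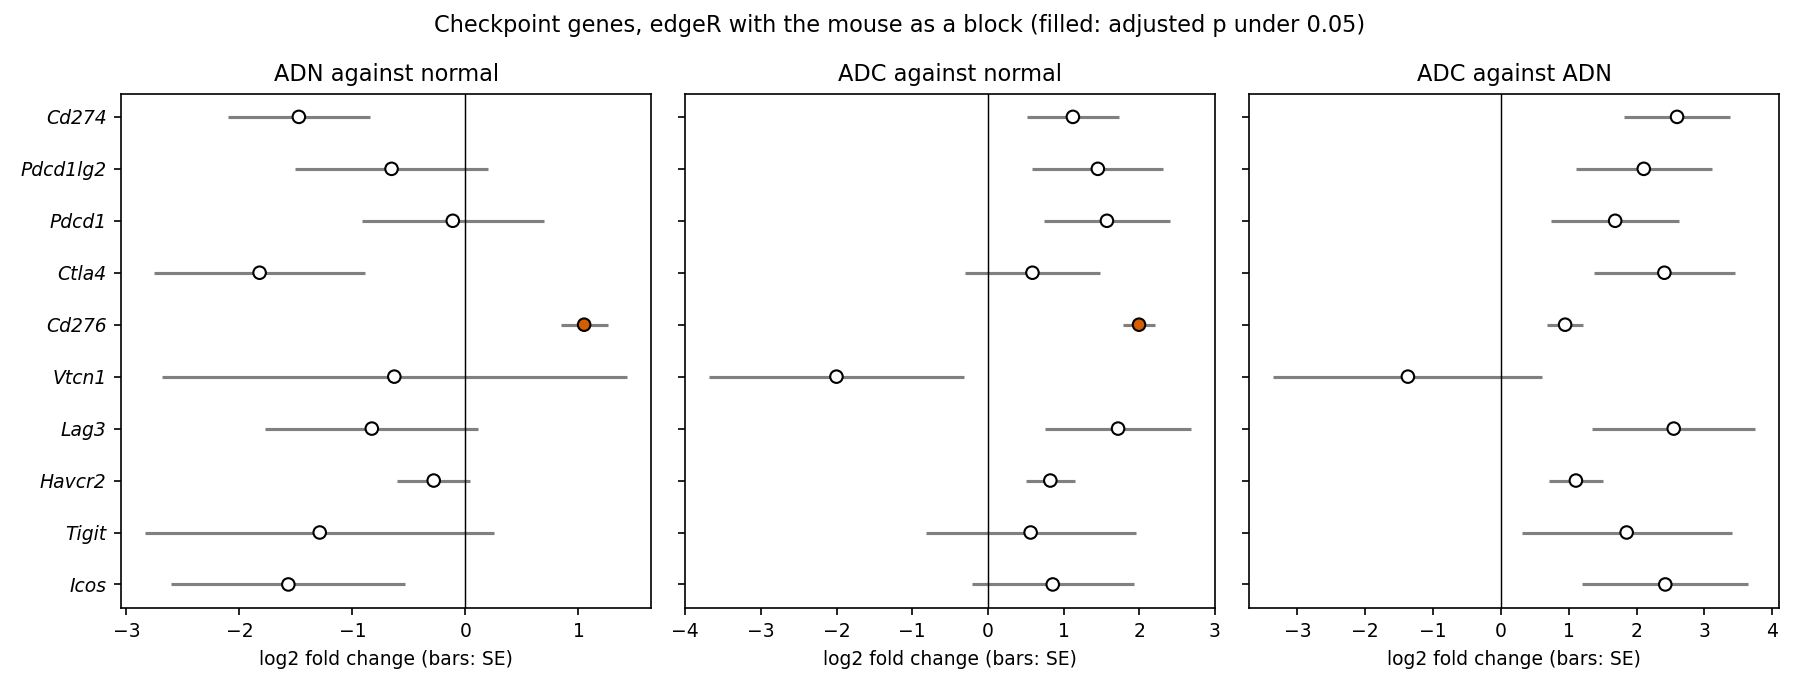
Log2 fold changes (x axis) of the 10 checkpoint genes (y axis) in ADN tumors against normal lungs, ADC tumors against normal lungs and ADC against ADN tumors, from the edgeR fit with the mouse as a block. Points are estimates, bars are 1 SE, and filled points passed an adjusted p of 0.05; Cd276 is the filled point at 1.05 and at 1.997.

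B7-H3, encoded by Cd276, has been described as both a costimulator and an inhibitor of T cells. In normal lungs Cd276 was at 10.8 CPM in mouse m335, 11.8 in m368, 13.8 in m350, 11.4 in m372 and 9.98 in m378. ADN tumors had 28.3 CPM in mouse m335, 20.2 in m368 and 27.3 in m350. ADC tumors had 48.9 CPM in mouse m335, 48.0 in m372 and 37.8 in m378. All tumors lay above all normal lungs, and all ADC tumors above all ADN tumors. Of all genes tested, 3.56% had every tumor above every normal lung, 7.92% had every tumor below (11.5% either way), and 0.158% had the 3 kinds of library in rising order with no overlap. Group means were 11.6 ± 1.42 CPM (SD, n = 5) in normal lungs, 25.3 ± 4.45 (SD, n = 3) in ADN and 44.9 ± 6.15 (SD, n = 3) in ADC tumors.

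Within mice the ratio of tumor to own normal lung ran from 1.70 (95% interval 1.49 to 1.94, exact, covering counting error only) in the ADN tumor of mouse m368 to 4.54 (4.05 to 5.10) in the m335 ADC tumor. The log2 fold change of Cd276 was 1.54 ± 0.26 (SE) in tumors against normal lungs, with an edgeR adjusted p of 0.00697 and 6 of 6 tumors higher. It was 1.05 ± 0.21 in ADN tumors (adjusted p 0.0249, 3 of 3 higher) and 1.997 ± 0.21 in ADC tumors (adjusted p 0.00594, 3 of 3 higher). Between ADC and ADN tumors the difference was 0.95 ± 0.26, and its edgeR adjusted p of 0.706 did not pass. In ADN tumors it failed the threshold in 9 of the 11 fits that omitted 1 library, all but those omitting the m372 normal lung or the m335 ADC tumor, with an edgeR adjusted p from 0.0501 (without the m368 normal lung) to 0.219 (without the m335 ADN tumor). The call over all tumors held in every such fit, at 1.41 to 1.72. The epithelial list moved with it: 5 of 8 genes passed, all higher, with a median of 0.89 (Elf3 was lost in most fits without 1 library, with an adjusted p of up to 0.085, and Cdh1 without the m378 normal lung, at 0.0507), and the endothelial list had 8 of 8 lower. The m335 ADC tumor, which had the lowest epithelial sum, had the highest level of Cd276. That sum mostly follows Sftpc, whose mean over all libraries was 35162 CPM, against 952 CPM for Cldn18, the next gene of the list. Epcam, Cdh1, Krt8, Krt18, Elf3 and Cldn18 were above the own normal lung in 3 of 3 ADC tumors, the m335 tumor among them. Sftpc and Nkx2-1 were so in 2 of 3. The part of tissue makeup in the Cd276 difference was not tested.

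**Figure D2:**
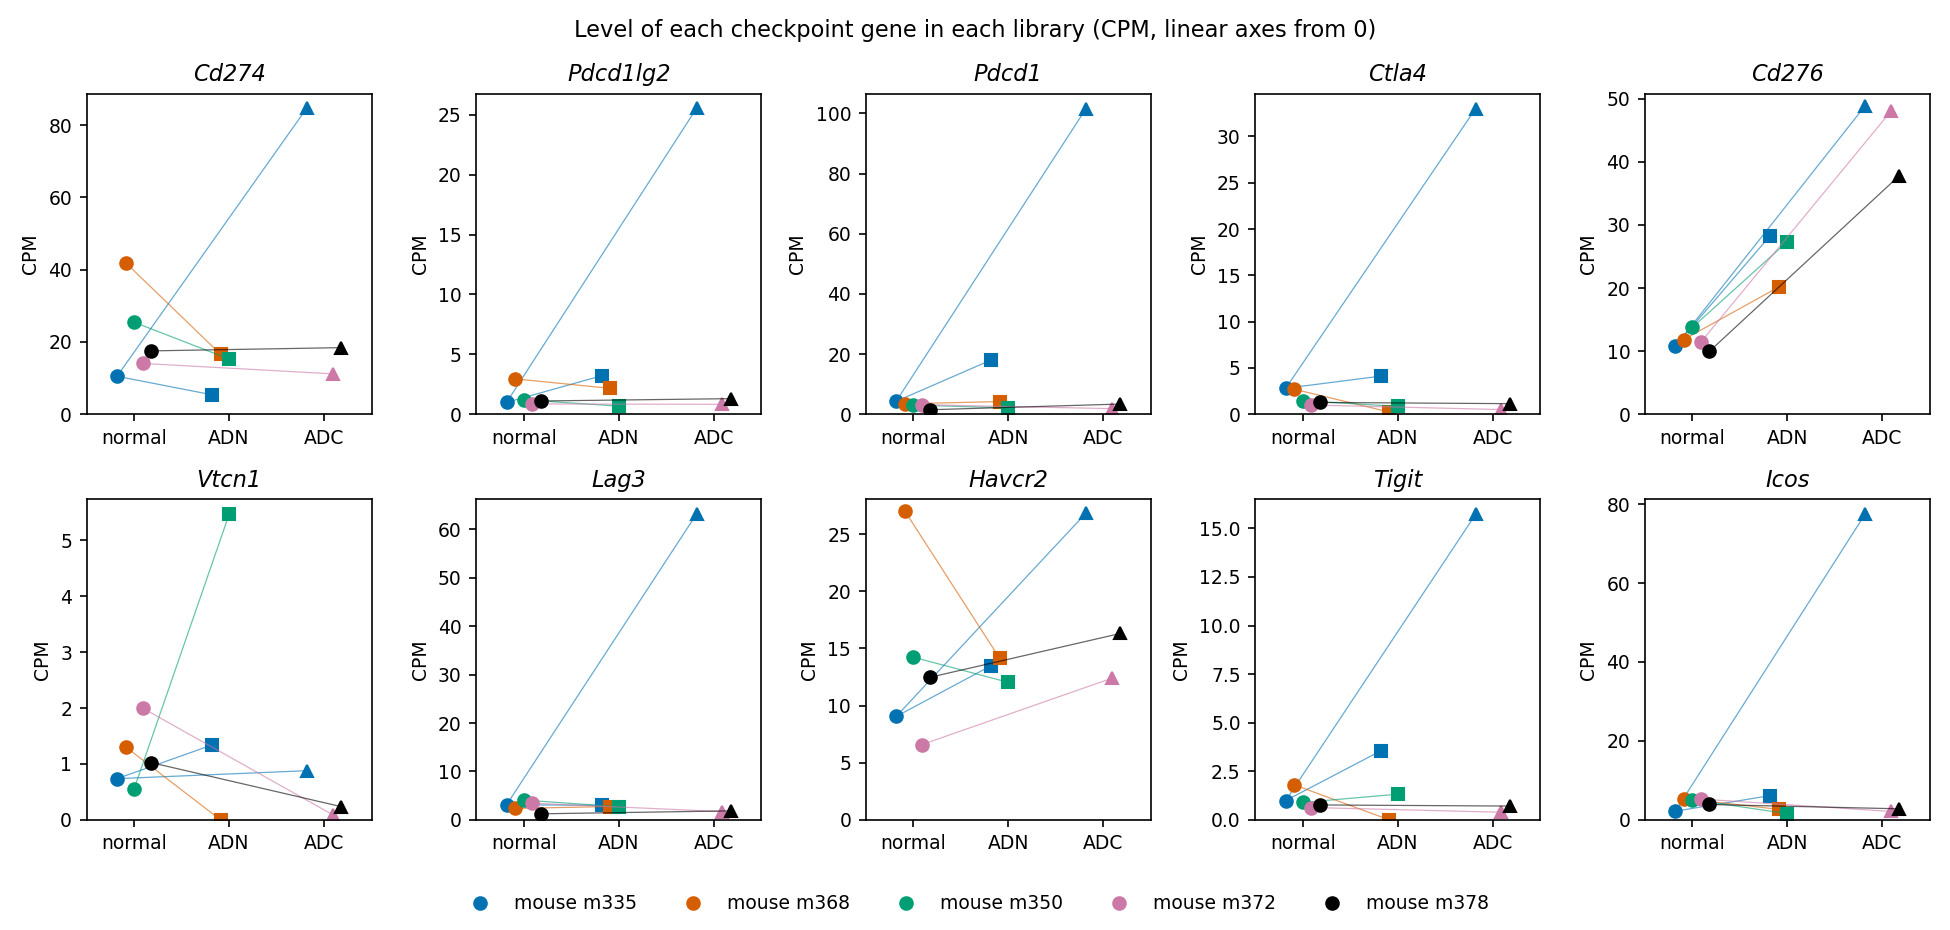
CPM (y axis, linear, from 0) of each checkpoint gene in normal lungs, ADN and ADC tumors (x axis), with 1 point per library, 1 color per mouse and a line from each normal lung to the tumor of the same mouse. Cd276 rises along every line (9.98 to 13.8 CPM in normal lungs, 20.2 to 48.9 in tumors), while most other panels are set by the ADC tumor of mouse m335.

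The PD-1 ligands behaved differently. Cd274 was at 10.5 CPM in the m335 normal lung, 42.0 in m368, 25.5 in m350, 14.1 in m372 and 17.5 in m378. In ADN tumors it was 5.39 CPM in mouse m335, 16.6 in m368 and 15.3 in m350, each below its own normal lung. The ADC tumors had 84.8 CPM in mouse m335, 11.2 in m372 and 18.4 in m378. So 1 library lay above all others, and the remaining tumors overlapped the normal lungs. Within mouse m335 the ADN tumor had 0.513 times and the ADC tumor 8.06 times the level of the normal lung they share. The log2 fold change of Cd274 was -1.47 ± 0.63 in ADN tumors against normal lungs (0 of 3 higher), and its edgeR adjusted p of 0.202 did not pass. Without the ADC tumor of mouse m335 that adjusted p was 0.0364. In ADC tumors against normal lungs it was 1.12 ± 0.60 (adjusted p 0.376), and over all tumors -0.05 ± 0.74 (adjusted p 0.974). Between ADC and ADN tumors the difference was 2.60 ± 0.78, with an edgeR adjusted p of 0.737 and a DESeq2 adjusted p of 0.0465.

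Pdcd1lg2, the second PD-1 ligand, was low in all libraries but 1. Normal lungs had 0.863 to 2.95 CPM with a median of 1.11, and the highest was that of mouse m368. ADN tumors had 3.21 CPM in mouse m335, 2.16 in m368 and 0.678 in m350. ADC tumors had 25.5 CPM in mouse m335, 0.828 in m372 and 1.30 in m378. The level in the ADC tumor of mouse m335 was 7.95 times that of the next library, the ADN tumor of the same mouse. Over all tumors the log2 fold change was 0.42 ± 0.85 (edgeR adjusted p 0.811).

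Pdcd1, the PD-1 receptor, was at 4.31 CPM in the m335 normal lung, 3.48 in m368, 3.06 in m350, 3.18 in m372 and 1.51 in m378. The ADN tumors had 18.0 CPM in mouse m335, 4.22 in m368 and 2.11 in m350. The ADC tumors had 102 CPM in mouse m335, 1.87 in m372 and 3.40 in m378. Both tumors of mouse m335 were above every normal lung, and the other 4 tumors overlapped them. Against its own normal lung the ADC tumor of mouse m335 had 23.6 times (20.0 to 27.9) and the ADN tumor 4.19 times (3.49 to 5.05) the level. The log2 fold change over all tumors was 0.72 ± 0.77 (edgeR adjusted p 0.619, 4 of 6 higher), smaller than the spread between tumors. Per kilobase of transcript Pdcd1 had the highest level of the 10 genes in the ADC tumor of mouse m335, at 52.6 CPM per kilobase. Lag3 followed at 31.6, then Icos at 23.9 and Cd274 at 23.4. Ctla4, at 19.5, rests on a length averaged over 2 transcripts of 614 and 1933 bases, so its place depends on that length.

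CTLA-4 and ICOS are relatives of CD28, found on activated T cells and regulatory T cells. Ctla4 was at 0.999 to 2.81 CPM in normal lungs, with a median of 1.45. It was 4.12, 0.244 and 0.857 CPM in the ADN tumors of mice m335, m368 and m350, and 33.0, 0.507 and 1.14 CPM in the ADC tumors of mice m335, m372 and m378. The ADC tumor of mouse m335 was thus 8.02 times the next library, while 3 of the other tumors were below every normal lung. Icos was at 2.18 CPM in the m335 normal lung and at 3.89 to 5.41 in the other normal lungs. It was 6.16, 2.65 and 1.57 CPM in the ADN tumors (m335, m368, m350) and 77.5, 2.15 and 2.80 CPM in the ADC tumors (m335, m372, m378). Icos had the highest ratio of the 10 genes in that tumor: 35.5 times (28.3 to 45.1) its own normal lung there, 2.82 times in the ADN tumor of that mouse, and 0.306 to 0.720 times in the other 4. Over all tumors the log2 fold changes were -0.48 ± 0.95 for Ctla4 (edgeR adjusted p 0.805) and -0.38 ± 1.01 for Icos (adjusted p 0.854). The deposited split of Ctla4 reads between its 2 transcripts is not described, because 1 of them held exactly the same share, 5.36%, in 3 libraries. That split entered only the transcript length behind the level of Ctla4 per kilobase.

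LAG-3 binds MHC class II and restrains T cells. Lag3 was at 3.12, 2.36, 4.08, 3.45 and 1.25 CPM in the normal lungs of mice m335, m368, m350, m372 and m378. The ADN tumors had 3.01, 2.76 and 2.72 CPM (m335, m368, m350), within that range. The ADC tumors had 63.2 CPM in mouse m335, 1.71 in m372 and 1.86 in m378. Lag3 thus had the largest gap between the ADC tumor of mouse m335 and the next library of the 10 genes, 15.5 times, although the ADN tumor of that mouse had 0.966 times its normal lung. Its log2 fold change was 0.45 ± 0.91 over all tumors (edgeR adjusted p 0.809).

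TIM-3, encoded by Havcr2, is found on myeloid cells as well as T cells. It was at 9.04, 27.0, 14.2, 6.58 and 12.5 CPM in the normal lungs of mice m335, m368, m350, m372 and m378. The ADN tumors had 13.5, 14.1 and 12.0 CPM (m335, m368, m350) and the ADC tumors 26.8, 12.4 and 16.3 CPM (m335, m372, m378). All tumors lay within the range of the normal lungs. The high normal lung, that of mouse m368, also had the highest sum of the macrophage and monocyte list (15 of 16 genes in the table), 9983 CPM against 816 to 3508 CPM elsewhere. The log2 fold change of Havcr2 in ADC tumors against normal lungs was 0.82 ± 0.32 with 3 of 3 higher, and its edgeR adjusted p of 0.222 did not pass.

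Tigit, a receptor for the nectin-like PVR and for nectin-2, was at 0.636 to 1.80 CPM in normal lungs. The ADN tumors had 3.55 CPM in mouse m335, 0 counts in m368 and 1.32 CPM in m350. The ADC tumors had 15.7 CPM in mouse m335, 0.392 in m372 and 0.711 in m378. A count of 0 allows up to 3 counts, or 0.105 CPM in that library. With the level of its own normal lung (1.80 CPM) taken as exact, the ADN tumor of mouse m368 was at least 17.2-fold lower. With counting error in both libraries, the 95% interval of the ratio reached up to 0.0737. Over all tumors the log2 fold change was -0.12 ± 1.22 (edgeR adjusted p 0.962).

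Vtcn1 was the gene whose high tumor was a different one. Its normal lungs had 0.557 to 1.997 CPM. The ADN tumor of mouse m350 had 5.46 CPM, 9.81 times (6.003 to 17.0) its own normal lung, and that of mouse m335 had 1.34 CPM. With 0 counts, the ADN tumor of mouse m368 was at least 12.5-fold lower than its normal lung, if the level of that lung is taken as exact. With counting error in both libraries, the 95% interval of the ratio reached up to 0.103. The ADC tumors had 0.879 CPM in mouse m335, 0.0923 in m372 and 0.237 in m378, the last 2 from 4 and 6 counts. The log2 fold change over all tumors was -1.59 ± 1.58 (edgeR adjusted p 0.583), and its SE was the largest of the 10 genes. The 3 genes most like it over the 11 libraries were Rsph4a, a part of the radial spoke of cilia, Lrguk and Kif27 (Pearson r 0.973, 0.967 and 0.962 of log2 CPM).

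Seen tumor by tumor, 1 library carried most of the signal. Of the 10 genes, 8 were highest of all 11 libraries in the ADC tumor of mouse m335, beside 18.7% of genes tested. For 6 of the 10 (Pdcd1lg2, Pdcd1, Ctla4, Lag3, Tigit and Icos) its level was at least 4 times that of every other library, beside 1.03% of genes tested. This fold was set after the values were seen. The 10 genes summed to 478 CPM there and to 45.5 to 101 CPM elsewhere. The natural killer and cytotoxic sum was 169 CPM there, against 3.76 to 13.2 in the other tumors and 35.7 to 106 in normal lungs. Prf1 and Ncr1 of that list were above the own normal lung in 0 of 3 ADC tumors. The other genes of that list were so in 1 of 3. The B cell sum was 597 CPM, against 72.2 to 156 in the other tumors and 120 to 392 in normal lungs. The T cell sum was high in the same library too. So were Cxcl9, a chemokine induced by interferon gamma (481 CPM, against 1.25 to 8.17 elsewhere), and Ido1, a tryptophan-degrading enzyme (60.5 CPM, against 0 to 1.74). Foxp3, the factor of regulatory T cells, was at 43.1 CPM there and 2.87 to 12.9 CPM elsewhere. The regulatory T cell list summed to 345 CPM there, against 109 to 162 in the other tumors and 152 to 261 in normal lungs. The 261 CPM came from the own normal lung of that tumor. Lrrc32 of that list was above the own normal lung in 0 of 6 tumors, and Ccr8 in 6 of 6. The part of each cell type in the checkpoint levels was not tested. With 1 such tumor, neither the tag, the mouse nor the time after NNK can be told apart from that tumor, and the ADN tumor from the same mouse and time had 18.0 CPM of Pdcd1 and 3.01 CPM of Lag3.

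**Figure D3:**
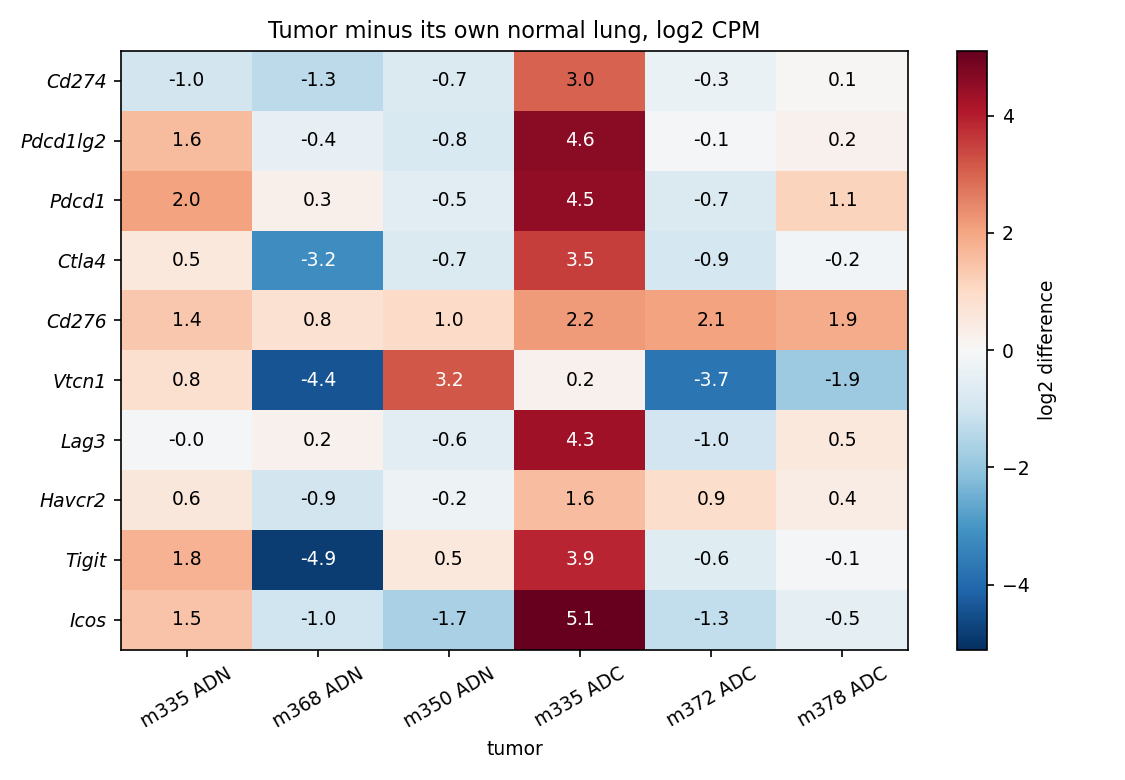
Difference in log2 CPM (prior count 2) between each tumor (columns) and the normal lung of the same mouse (rows: genes), with the value in each cell and red for higher and blue for lower. The column of the ADC tumor of mouse m335 is red in all rows, palest for Vtcn1, and the row of Cd276 is red in all 6 columns; the cells of Vtcn1 and Tigit in the ADN tumor of mouse m368 rest on 0 counts.

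Relative to T cell receptor complex genes, some receptors stood higher in every tumor. The sum of Cd3d, Cd3e and Cd3g was 34.6 CPM in the m335 normal lung, 49.7 in m368, 54.2 in m350, 105 in m372 and 34.7 in m378. In tumors it was 28.2, 9.21 and 18.3 CPM (ADN, m335, m368, m350) and 232, 11.0 and 12.4 CPM (ADC, m335, m372, m378). Per 100 CPM of this sum Pdcd1 was 3.03 to 12.5 CPM in normal lungs and 11.5 to 64.0 CPM in tumors. Each tumor exceeded its own normal lung, by 2.04 to 6.54 times. Lag3 per 100 CPM of Cd3 was 3.29 to 9.02 CPM in normal lungs and 10.7 to 29.9 CPM in tumors, with no overlap. Pdcd1lg2 was also higher in 6 of 6 tumors. Icos, Ctla4, Tigit, Cd274, Havcr2 and Cd276 were higher in 5 of 6, and Vtcn1 in 2 of 6.

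A ratio higher in all 6 tumors was found for 3 of the 10 genes, beside 1.42% of genes tested and 0 of 13 other T cell genes. The ratio was chosen after the data were seen. It is a description and was not tested, since the genes were singled out by the same ratio.

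**Figure D4:**
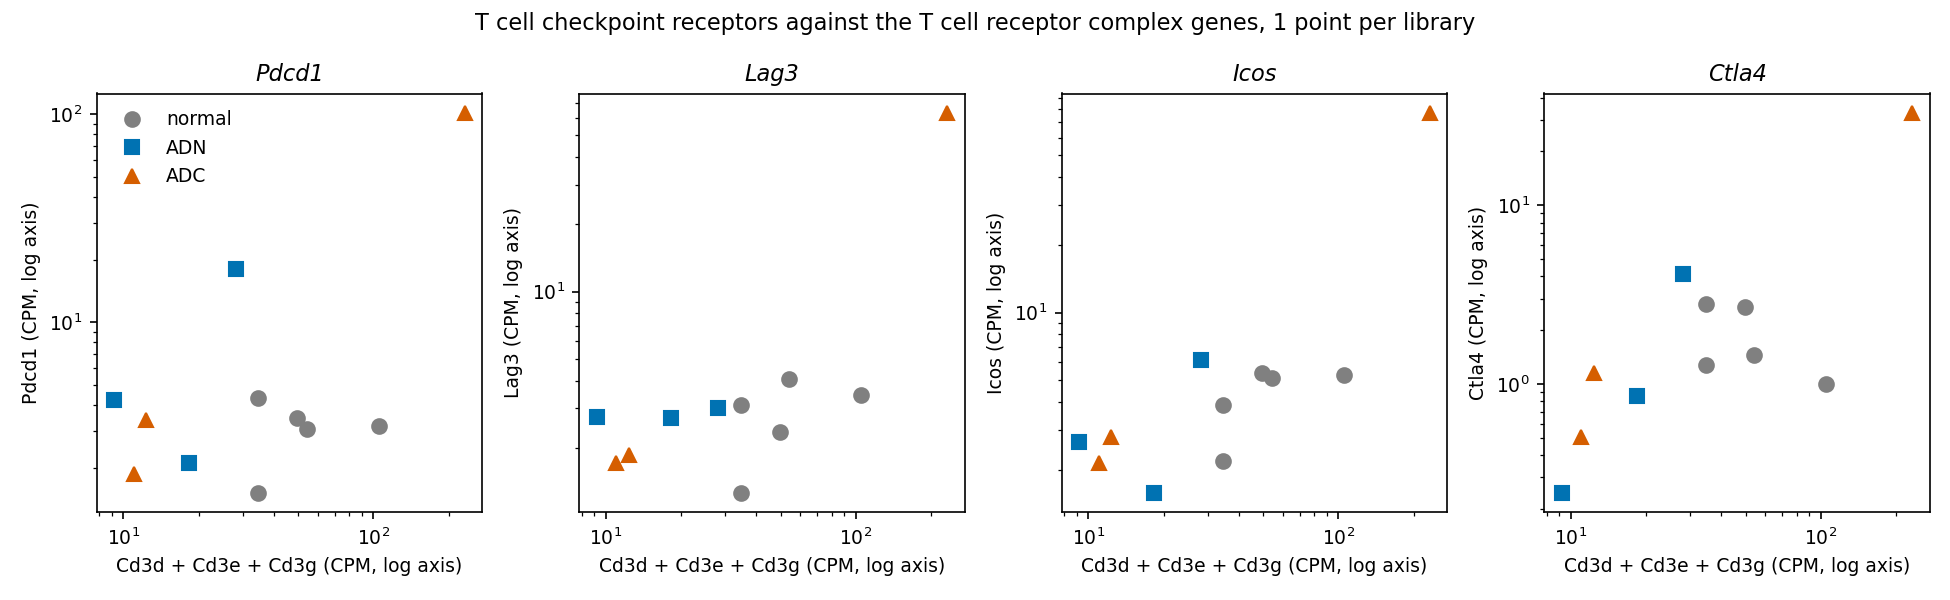
CPM of Pdcd1, Lag3, Icos and Ctla4 (y axes, log scale) against the summed CPM of Cd3d, Cd3e and Cd3g (x axis, log scale), with 1 point per library. For Pdcd1 the 3 ADC and 3 ADN tumors lie above or to the left of the normal lungs, at 11.5 to 64.0 CPM per 100 CPM of Cd3 against 3.03 to 12.5, and the ADC tumor of mouse m335 is the point at the upper right.

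Among 16 tested binding partners of the 10 proteins 1 rose and 2 fell in tumors (median log2 fold change -0.38), beside 3.68% higher and 7.91% lower among all genes. Without the m335 ADC tumor 2 rose and 3 fell, beside 9.58% and 12.8%. Nectin2, a ligand of TIGIT, was at 86.7 to 130 CPM in normal lungs and 188 to 435 CPM in tumors. It rose by 1.33 ± 0.25 (edgeR adjusted p 0.00935, 6 of 6 higher). Icosl, the ligand of ICOS, was at 25.5 to 47.6 CPM in normal lungs, at 37.2 CPM in the ADC tumor of mouse m335 and at 5.83 to 17.1 CPM in the other tumors. Its log2 fold change was -1.29 ± 0.27 (edgeR adjusted p 0.0164, 0 of 6 higher), and the call was lost without the mouse block (0.115) or without any library of mouse m372 or m378 (0.0609 to 0.0624). Clec4g, a lectin reported to bind LAG-3, was at 1.23 to 4.86 CPM in normal lungs and at most 0.461 CPM in tumors (-3.79 ± 0.78, edgeR adjusted p 0.0154). It failed the threshold without the m335, m350 or m378 normal lung (0.0625, 0.0559 and 0.0665) or the m378 ADC tumor (0.0575).

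Of 16 other inhibitory checkpoint genes 0 rose and 1 fell (median -0.48). It was Vsir, which encodes VISTA, an inhibitory B7 family protein, at 133 to 171 CPM in normal lungs and 43.7 to 83.6 CPM in tumors (-1.38 ± 0.21, edgeR adjusted p 0.00364, 0 of 6 higher). Without the ADC tumor of mouse m335 this list had 1 higher and 5 lower, beside 9.58% and 12.8% of all genes. Of 9 other costimulatory genes 1 rose and 0 fell (median -0.67), and without that tumor 1 rose and 4 fell (Cd2, Cd27, Cd40 and Slamf1). Tnfsf9, the ligand of the receptor 4-1BB, was at 4.57 to 9.28 CPM in normal lungs and 50.1 to 138 CPM in tumors (3.68 ± 0.37, edgeR adjusted p 0.000899, 6 of 6 higher). Its lowest tumor was the ADC tumor of mouse m335.

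**Figure D5:**
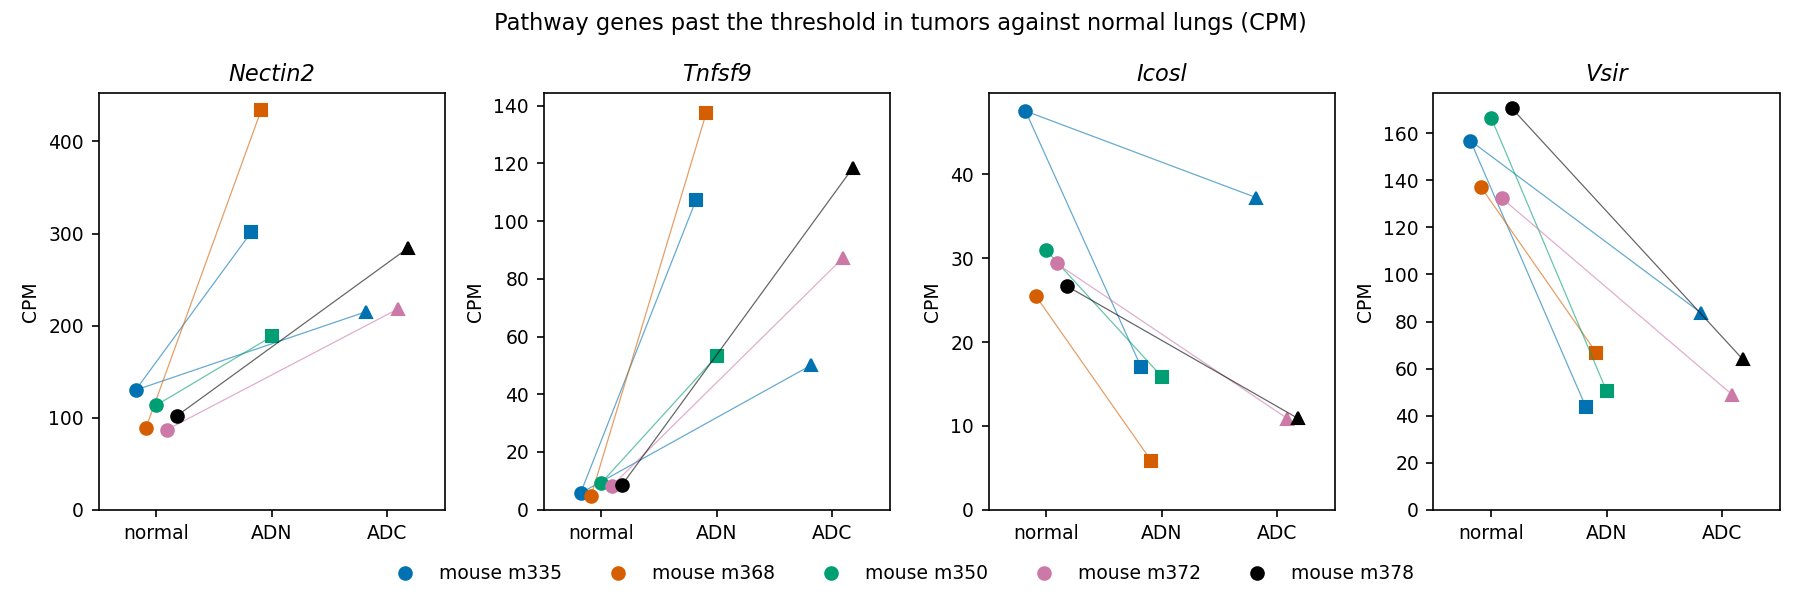
CPM (y axis, linear, from 0) of Nectin2, Tnfsf9, Icosl and Vsir in normal lungs, ADN and ADC tumors (x axis), with 1 point per library, 1 color per mouse and lines from each normal lung to its tumors. Nectin2 (188 to 435 CPM) and Tnfsf9 (50.1 to 138 CPM) are higher in every tumor, and Vsir (43.7 to 83.6 CPM) is lower in every tumor.

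Marker lists of cells that can carry these receptors were counted with and without the ADC tumor of mouse m335. Of 16 T cell genes 0 passed the test (median -1.45), and without that tumor 13 fell, beside 12.8% of all genes. Of 11 natural killer and cytotoxic genes 1 fell, Prf1 (perforin, -3.13 ± 0.54, edgeR adjusted p 0.00724), and without that tumor 9 fell. Of 9 B cell genes 0 passed, and 7 fell without it. Of 20 interferon gamma response genes 0 passed, and 9 fell without it. Of 4 tested thymocyte genes 0 passed, and 4 fell without it. Of 8 regulatory T cell genes 1 fell, Lrrc32 (-2.72 ± 0.34, adjusted p 0.0017), which is also expressed by endothelial cells, and without the m335 ADC tumor it was again 1 of 8 (median -0.09). Of 12 dendritic cell genes Ccl17 rose and Clec9a and Zbtb46 fell, each losing its call without any 1 library of mouse m350 or m378 or without the m335 normal lung (adjusted p up to 0.122, 0.0863 and 0.132), and without the m335 ADC tumor 2 were higher and 3 lower. Of 15 macrophage and monocyte genes 0 passed, and 3 fell without it (Ccr2, Csf1r and Itgam). Of 8 fibroblast genes 3 fell (Dpt, Pdgfra and Tcf21).

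The 3 genes whose log2 CPM over the 11 libraries was most like that of a checkpoint gene are given, for all but Ctla4, as a description. For most of these genes the high ADC tumor of mouse m335 weighs on r. It changed r little for Cd276 and for Vtcn1 (0.973, 0.966 and 0.972 for Rsph4a, Lrguk and Kif27 without that tumor). For Havcr2, r was 0.851, 0.853 and 0.844 without it. For Cd274 they were Nckap1l, Cytip and Serpinb1a (Pearson r 0.974, 0.967 and 0.963; 0.970, 0.933 and 0.931 without that tumor). For Pdcd1 they were Aurkaip1, Tnfrsf18 (the costimulatory receptor GITR) and Tnfrsf4 (the costimulatory receptor OX40), at 0.958, 0.953 and 0.953. For Pdcd1lg2 they were Dnase1l3, Foxp3 and Aurkaip1 (0.955, 0.955 and 0.948). For Icos they were Iigp1, an interferon-inducible GTPase, Cxcl9 and Slamf8 (0.969, 0.960 and 0.960). Lag3 was most like Ubd, Prpf38a and Dapp1 (0.946, 0.938 and 0.932), and without that tumor these were 0.517, 0.688 and 0.369. Cd276 was most like Ssx2ip, Cox7a2l and Cct5 (0.958, 0.956 and 0.941), or 0.963, 0.954 and 0.928 without it. For Havcr2 they were Slc7a2, Pld3 and Ms4a6d and for Tigit Lpcat2, Slamf7 and Cetn2, with r between 0.890 and 0.927.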

How the data were processed

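Poly-A libraries of RNA with an integrity number of 7 or more were sequenced on an Ion Proton after preparation (Ion Total RNA-Seq Kit v2), per the labels' protocols. The submitters' processing notes name STAR 2.4.1d, Bowtie2 2.1.0, Partek and mm10; which did what, which annotation was used and whether strand was counted is not given in the sources used here. The deposited values are expected counts per RefSeq transcript (36285 rows), not normalized by the authors. They were summed to 24515 genes and rounded; 78.4% to 86.2% of gene sums per library were already whole within 0.01. Table ends lie 1 base past RefSeq, and that base was removed.

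Genes were filtered with filterByExpr (15175 kept) and tested by robust quasi-likelihood in edgeR 4.0.16 (R 4.3.3), with TMM scaling and the mouse as a fixed block. Tests were two-sided with Benjamini-Hochberg adjustment over all genes, at a threshold of 0.05. Tumor against normal was fitted with 2 groups and the ADN and ADC comparisons with 3, on all 11 libraries. SEs come from the F statistic, and log2 CPM used a prior count of 2. Levels per kilobase used GENCODE M21 transcript lengths, weighted by the counts of each transcript where a gene had several. Alternatives were DESeq2 1.42.0, library totals, other filters, no block, 7-month mice, and leaving out each library or mouse.

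The pairing comes from the mouse identifiers. Correlations of a tumor's deviations with those of its own normal lung were 0.240, 0.109, 0.00493, -0.0444, -0.0367 and 0.254. Simulated data had 200 of 15175 genes changed 4-fold. Of these, 97% were recovered in tumor against normal, 94% in ADN against normal and 95.5% in ADC against normal. False calls were 4.43%, 2.08% and 8.17%. The simulation gave every gene the same dispersion and held no outlying tumor. These rates therefore do not apply to genes with a wide spread between tumors, such as Cd274 and Icos (SE 0.74 and 1.01 in tumor against normal). Named genes are the 10 checkpoint genes, up to 6 genes of each other list that passed in tumor against normal, and the 3 genes most like each checkpoint gene at 1 CPM or more. Other genes were named where a result turned on them. The genes most like Ctla4 and 2 further results are not reported here. The genes and lists were chosen with earlier results of these data known.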

Additional observations from a re-analysis of the deposited data

Results flagged for a closer look

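In the 6 tumors the ADC tumor of mouse m335 stood apart from the nearest other tumor by Dixon's criterion for 8 of the 10 checkpoint genes. Its levels were 84.8 CPM for Cd274, 25.5 for Pdcd1lg2, 101.6 for Pdcd1, 33.0 for Ctla4, 63.2 for Lag3, 26.8 for Havcr2, 15.7 for Tigit and 77.5 for Icos. For Vtcn1 the ADN tumor of mouse m350 stood apart instead, at 5.46 CPM. Among the 5 normal lungs that of mouse m368 stood apart for Pdcd1lg2, at 2.95 CPM. For normally distributed values, chance alone sets about 1 in 20 groups apart in this way, and CPM values need not be so distributed. The share of all genes tested that this criterion flags was not computed. The ADC tumor of mouse m335 was the highest of the 11 libraries for 18.7% of genes tested. The 8 genes share 1 library, so these are not separate observations.

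Tumors taken 4 months after NNK lay above their normal lung and those at 7 months below it for Ctla4, with a difference of 2.75 between the median log2 differences, and for Icos, with a difference of 4.56. This difference was not tested, and both 4-month tumors came from mouse m335 and share a normal lung.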

How the results depend on the processing

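Cd276 kept its direction and its call in tumor against normal in all 22 alternatives (1.35 on library totals, 1.41 to 1.72 with a library or mouse left out) and in ADC against normal in all 22, with an adjusted p of up to 0.0498. In ADN against normal its call was lost with 7-month mice alone and in 13 of 16 fits that left out a library or mouse; it held without the normal lung of mouse m372, the ADC tumor of mouse m335, or mouse m368. Library totals moved the median of all genes from -0.03 to -0.22 in tumor against normal.

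Genes called in tumor against normal were 3286 with DESeq2 and 3040 with 7-month mice. In ADN against normal they were 1779 without the replicate block and 2931 with DESeq2, and in ADC against normal 1546, 1858 and, with 7-month mice, 2998. In ADC against ADN they were 3 without the replicate block, 129 with DESeq2, 5 with no filter and 1 with a minimum of 1 CPM in 3 libraries. Checkpoint genes called were 0 for ADN and 2 for ADC with 7-month mice (Vtcn1 at -3.20, adjusted p 0.0441, beside Cd276) and 1 for ADC against ADN with DESeq2 (Cd274). With a library or mouse left out, genes called were 917 to 3377, 0 to 1972, 65 to 1067 and 0 to 2 in the 4 comparisons, in the order tumor, ADN and ADC against normal and ADC against ADN, and checkpoint genes called in ADN against normal 0 to 2. The 3377 and 1972 came without the ADC tumor of mouse m335, and the 0 without the ADN tumor of that mouse.

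Changes of sign touched only genes that passed in neither fit. Without the replicate block, tumor against normal gave Cd274 0.21, Ctla4 1.84, Vtcn1 0.25, Tigit 1.82 and Icos 1.82, and ADN against normal gave Pdcd1lg2 0.50, Pdcd1 1.39, Vtcn1 1.01 and Tigit 0.67. With 7-month mice, tumor against normal gave Pdcd1lg2 -0.18, Pdcd1 -0.029 and Lag3 -0.33, ADN against normal Vtcn1 3.35 and Tigit 0.62, ADC against normal Cd274 -0.11, Ctla4 -0.53, Lag3 -0.23, Tigit -0.37 and Icos -0.87, and ADC against ADN Tigit -0.99. With a library or mouse left out, tumor against normal ran from -0.61 to 0.29 for Cd274, -1.24 to 0.21 for Ctla4, -1.12 to 0.036 for Icos, -0.21 to 0.87 for Lag3, -0.27 to 0.79 for Pdcd1lg2 and -1.01 to 0.77 for Tigit. ADC against normal ran from -0.11 to 1.77 for Cd274, -0.54 to 1.30 for Ctla4, -0.87 to 1.97 for Icos, -0.22 to 2.85 for Lag3 and -0.38 to 1.22 for Tigit. ADN against normal ran from -0.59 to 0.016 for Havcr2, -0.67 to 0.66 for Pdcd1, -1.21 to 0.18 for Pdcd1lg2, -2.52 to 0.12 for Tigit and -2.66 to 1.41 for Vtcn1. ADC against ADN ran from -0.48 to 3.11 for Icos, -0.14 to 3.35 for Lag3, -0.45 to 2.30 for Pdcd1, -0.077 to 2.56 for Pdcd1lg2 and -0.11 to 3.14 for Tigit. The cause of these shifts was not tested. Several of these genes rest on few counts in some libraries, down to 0 for Vtcn1 and Tigit.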
